A study of Glycine max with 24 samples.

Results

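HiPro and LoPro seed were compared at the last of 4 stages of seed fill, when a seed weighed more than 200 and up to 300 mg. The comparison rests on 6 of the 24 arrays of the study, 3 of HiPro and 3 of LoPro, taken by their genotype and seed weight labels, and covers all 37694 soybean probesets of the Affymetrix Soy GeneChip. HiPro is the line that carries the Glycine soja PI468916 allele at the seed protein QTL of linkage group I on chromosome 20. LoPro is the line that keeps the Glycine max allele there. The lines are a near-isogenic pair drawn from a single heterozygous plant after repeated backcrossing to the Glycine max parent, so each allele is represented by 1 line, and any other segment that still differs between the lines goes with the QTL allele. Plants of both lines were raised in growth chambers, in soil with a Bradyrhizobium inoculant and fertilizer. A replicate is the whole seed of 3 pooled plants, and the same plants gave the younger seed of that replicate.

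Developing soybean cotyledons fill their cells with storage proteins, mainly glycinin and beta-conglycinin, and with oil that is held in bodies coated by oleosins. The cotyledons are green during seed fill and hold working chloroplasts. Amino nitrogen and sucrose reach them through the seed coat. The QTL region of chromosome 20 is known for an inverse effect on seed protein and oil.

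The deposited signals are on a linear scale with arbitrary units, and the 2% trimmed mean was between 500.15 and 500.17 on the 6 arrays. Across probesets, the log2 signals of HiPro arrays correlated with those of LoPro arrays at 0.941 to 0.954. Pairs of HiPro arrays gave 0.943 to 0.95 and pairs of LoPro arrays gave 0.945 to 0.956. These ranges overlapped. Differences are given as HiPro minus LoPro on the log2 scale with their standard error (SE) from a limma fit over all 24 arrays, n = 3 arrays for each line. A probeset was called when its Benjamini-Hochberg adjusted p over all probesets was under 0.05 and its difference was at least 1.5-fold.

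At stage 4, 22 probesets were called as lower in HiPro and 1 as higher, which is 0.061% of those tested (0.0584% lower and 0.00265% higher). All 23 differed by 2-fold or more, and in all 23 the HiPro arrays did not overlap the LoPro arrays. Without overlap but regardless of the call, 1152 probesets were higher in HiPro (3.06%) and 1933 lower (5.13%). The median difference over all probesets was -0.03. An unadjusted p under 0.05 was reached by 584 probesets higher and 1105 lower in HiPro, 4.48% in all. Of the 23 called probesets, 13 have neither a gene symbol nor a description, and these are given by their array identifier.

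**Figure D1:**
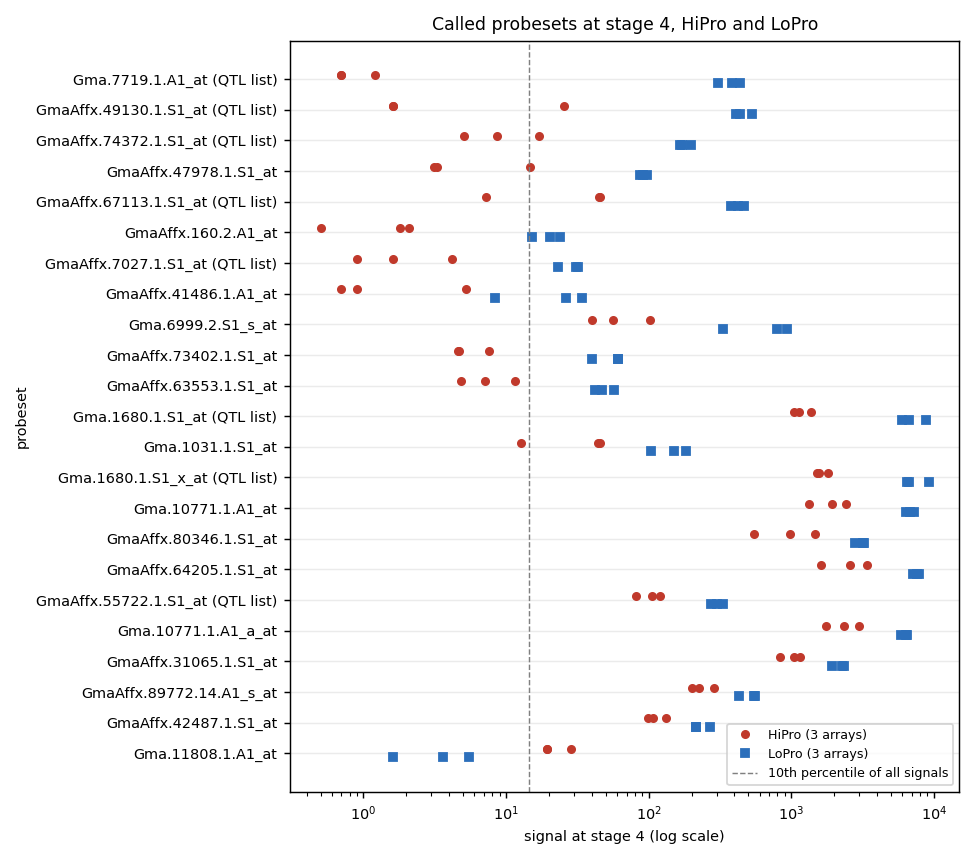
Signals of the 23 called probesets in each array of stage 4, on a log axis, with HiPro (circles) drawn above LoPro (squares) in each row and rows ordered by the log2 difference. The 3 HiPro arrays sit left of the 3 LoPro arrays in 22 rows and right of them in 1, and the dashed line marks a signal of 14.5, the 10th percentile of all signals.

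Of the called probesets within the QTL region, 2 belong to the gene that the study named pqi1 (LOC100306281), described as a hypothetical protein. Gma.1680.1.S1_at gave signals of 1384, 1038 and 1129 in HiPro, against 8829, 6000 and 6651 in LoPro. Gma.1680.1.S1_x_at gave 1821, 1576 and 1518 in HiPro, against 9253, 6485 and 6755 in LoPro. Every HiPro array lay far below the lowest LoPro array while still well above the dim end of the chip. The differences were -2.59 ± 0.24 (SE), or 6.01-fold, and -2.18 ± 0.23, or 4.53-fold, with limma adjusted p of 2.3e-05 and 4.5e-05. By qRT-PCR, however, the study reported no significant line difference for pqi1.

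A Mov34/MPN/PAD-1 gene (Glyma20g18880) gave the largest of the 23 differences. Proteins of this domain family include subunits of the proteasome lid and of the COP9 signalosome. Its probeset Gma.7719.1.A1_at gave 1.2, 0.7 and 0.7 in HiPro, against 308, 387 and 436 in LoPro. The second probeset of that entry, GmaAffx.74372.1.S1_at, gave 8.7, 16.9 and 5.1 in HiPro, against 166, 172 and 199 in LoPro. HiPro was at the dim end of the array in both probesets and LoPro was clearly above it. The differences were -8.84 ± 0.92 (adjusted p = 4.5e-05) and -4.30 ± 0.47 (adjusted p = 8.2e-05). Values this low are not precise on a log scale. With signals under the 10th percentile of all signals (14.5) raised to it, the differences were -4.68 and -3.55, or 25.7-fold and 11.7-fold, and both probesets were still called.

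A further pair of unannotated probesets from the region, which the study took to likely represent the same gene, behaved alike. GmaAffx.49130.1.S1_at gave 25.3, 1.6 and 1.6 in HiPro, against 527, 410 and 436 in LoPro, a difference of -6.82 ± 0.67 (adjusted p = 3.2e-05). GmaAffx.67113.1.S1_at gave 7.2, 45.9 and 45.2 in HiPro, against 470, 381 and 426 in LoPro, a difference of -4.11 ± 0.54 (adjusted p = 0.001). The spread among HiPro arrays was large, at 2.3 and 1.54 log2 units (SD), but no HiPro array came near the LoPro arrays. Raising dim signals to 14.5 gave differences of -4.70 and -3.77.

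The remaining called probesets of the region were GmaAffx.55722.1.S1_at, a hypothetical protein, and GmaAffx.7027.1.S1_at, the [2Fe-2S]-binding protein Glyma20g22070. GmaAffx.55722.1.S1_at gave 106, 121 and 82 in HiPro, against 335, 304 and 276 in LoPro, a difference of -1.58 ± 0.23 (adjusted p = 0.004). GmaAffx.7027.1.S1_at gave 1.6, 4.2 and 0.9 in HiPro, against 30.9, 23.1 and 32.1 in LoPro, a difference of -3.97 ± 0.72 (adjusted p = 0.036). Its signals were dim in both lines. Raised to 14.5 they gave -0.97 and an adjusted p of 0.66, so this call rests on values at the bottom of the scale, and without LoPro replicate 1, 2 or 3, or HiPro replicate 1 or 3, or with the plant pool as a random block, it was also lost.

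The list of the QTL region held 67 probesets, and the 8 above were called, all lower in HiPro, which is 11.9% of the list against 0.061% of all probesets. These 8 include pairs of probesets that the study took to likely represent the same gene, so they count fewer genes than probesets. Of the 67, 59 came from the gene models of the interval and 8 only from the study's own comparison of the lines on these arrays. Those 8 were chosen because they differed, so the 6 of them that were called are not independent evidence. Among the 59 of the gene model list, 2 were called (3.39%), Gma.7719.1.A1_at and GmaAffx.7027.1.S1_at. The 59 had a median difference of -0.11, with quartiles at -0.33 and 0.11, beside -0.03 over all probesets. Without overlap of the arrays, 1 of the 59 was higher in HiPro and 9 were lower (15.3%, beside 5.13% of all probesets).

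Several members of the region did not pass. Gma.734.1.A1_at (Glyma20g22430, protein At5g26600) gave 2538, 2497 and 2563 in HiPro, against 1738, 1784 and 2004 in LoPro, a difference of 0.46 ± 0.11 (adjusted p = 0.24). Gma.926.1.A1_at gave 1.9, 13.6 and 1.6 in HiPro, against 63.5, 90.2 and 49.8 in LoPro, a difference of -4.25 ± 1.12 (adjusted p = 0.48). GmaAffx.65278.1.A1_at, the member of the list with the highest difference, gave 75.3, 95.6 and 94.9 in HiPro, against 24.7, 8.7 and 25.7 in LoPro, a difference of 2.32 ± 0.72 (adjusted p = 0.71). In each of these 3 the arrays of the lines did not overlap, and in the last pair of probesets the dimmer line was near the bottom of the scale. With dim signals raised to 14.5, Gma.926.1.A1_at and GmaAffx.65278.1.A1_at differed by -2.18 and 2.07, with adjusted p of 0.013 and 0.0059. A neutral invertase (Glyma20g22780, GmaAffx.11786.1.S1_at), an enzyme that splits sucrose, gave 36.6, 9.4 and 94.8 in HiPro, against 82.5, 84.5 and 106 in LoPro, and the lines overlapped (adjusted p = 0.88).

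**Figure D2:**
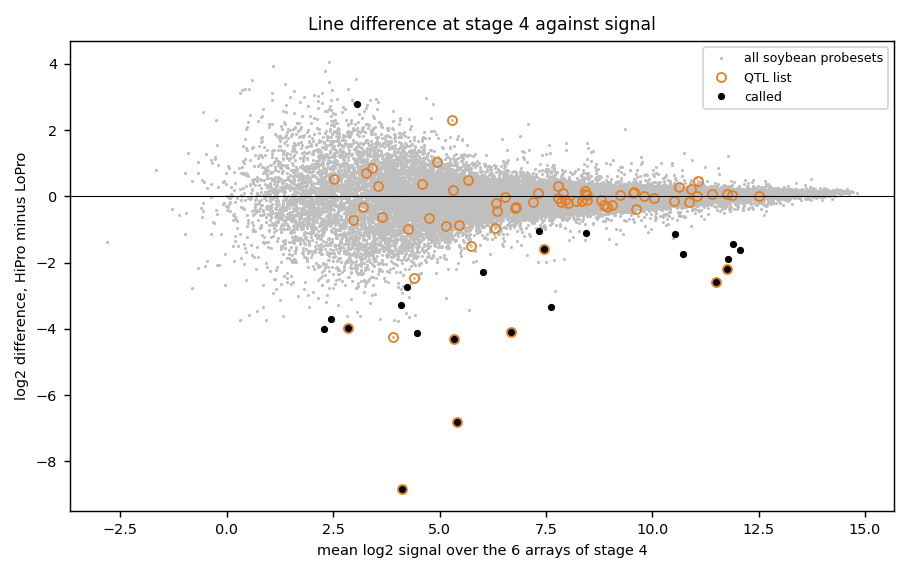
Log2 difference between HiPro and LoPro at stage 4 (vertical axis) against the mean log2 signal of the 6 arrays (horizontal axis) for all 37694 soybean probesets (grey), with the 67 probesets of the QTL list ringed and the 23 called ones filled in black. The spread of differences widens toward dim signals, and 22 of the called probesets lie below zero and 1 above it.

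An array reads a transcript through fixed probes designed on other sequence. For the introgressed segment, these arrays alone cannot separate a lower level from a weaker binding of the Glycine soja transcript. For the Mov34 gene and the gene of the unannotated pair, the study reported significant line differences by qRT-PCR. Its sequencing of the same RNA gave reads of both genes in LoPro and none in HiPro. It also found that probe affinity differed strongly between the lines for both genes and for pqi1.

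Outside the QTL list, 15 probesets were called, 14 of them lower in HiPro. The list is partial, so absence from it does not place a probeset outside the introgressed segment. The study placed GmaAffx.42487.1.S1_at and GmaAffx.47978.1.S1_at on other chromosomes. The positions of the others were not determined here, so the same limit on probe binding may hold for them. Of all 23 called probesets, 11 stand on a list of 66 line differences that the study drew from these same arrays, so their calls are no independent evidence, and 12 do not. Of these, 4 with strong signals in both lines have no gene name in the sources used here. Gma.10771.1.A1_at gave 2426, 1942 and 1331 in HiPro, against 6798, 7241 and 6378 in LoPro, a difference of -1.88 ± 0.26 (adjusted p = 0.0016). GmaAffx.64205.1.S1_at gave 3408, 2592 and 1617 in HiPro, against 7672, 7822 and 7094 in LoPro, a difference of -1.63 ± 0.26 (adjusted p = 0.011). In both, HiPro replicate 1 was the highest and replicate 3 the lowest of its line, while the LoPro arrays stayed close together. GmaAffx.80346.1.S1_at gave 1457, 974 and 552 in HiPro, against 2792, 3236 and 3201 in LoPro, a difference of -1.74 ± 0.28 (adjusted p = 0.013). Gma.10771.1.A1_a_at, which shares most of its identifier with the first, gave 2980, 2336 and 1761 in HiPro, against 6518, 6398 and 5927 in LoPro, a difference of -1.44 ± 0.23 (adjusted p = 0.011). These again put the HiPro replicates in the same order. The call of Gma.10771.1.A1_at was kept without any single array of stage 4. Those of the other 3 were lost without HiPro replicate 3 or LoPro replicate 2, those of GmaAffx.64205.1.S1_at and Gma.10771.1.A1_a_at also without LoPro replicate 1, and that of GmaAffx.80346.1.S1_at also without LoPro replicate 3.

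Other probesets whose identifiers begin with Gma.10771 were not called. Gma.10771.2.S1_x_at (LOC100500015) gave 1914, 2516 and 1943 in HiPro, against 1834, 2020 and 2490 in LoPro, a difference of 0.01 ± 0.24. Gma.10771.3.S1_x_at (LOC100787350) gave 780, 539 and 508 in HiPro, against 926, 810 and 900 in LoPro, a difference of -0.55 ± 0.23 (adjusted p = 1). The lines overlapped in the first and not in the second.

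A gene described as a lipolytic enzyme of the G-D-S-L family (GmaAffx.31065.1.S1_at), a family of plant esterases and lipases, had the smallest error of the called probesets. It gave 834, 1039 and 1154 in HiPro, against 1935, 2354 and 2286 in LoPro, so that the highest HiPro array was well under the lowest LoPro array. The difference was -1.13 ± 0.13, or 2.18-fold (adjusted p = 0.00012), and the call was kept without any single array of stage 4. It stands on the study's list of line differences, as do the next 3 probesets.

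An aldehyde dehydrogenase (Gma.1031.1.S1_at), of the enzymes that oxidise aldehydes to acids, gave 44.1, 12.7 and 45.4 in HiPro, against 150, 104 and 184 in LoPro, a difference of -2.27 ± 0.39 (adjusted p = 0.019). A putative phosphatase (GmaAffx.47978.1.S1_at) gave 3.1, 3.3 and 14.7 in HiPro, against 91.6, 87.7 and 97.5 in LoPro, a difference of -4.12 ± 0.44 (adjusted p = 5.6e-05). The phosphatase signal was dim in HiPro and very even in LoPro, and the difference was -2.66 once dim signals were raised to 14.5. GmaAffx.42487.1.S1_at, unnamed, gave 99.7, 108 and 133 in HiPro, against 214, 271 and 214 in LoPro, a difference of -1.04 ± 0.17 (adjusted p = 0.011). The call of the dehydrogenase was lost without HiPro replicate 2 or LoPro replicate 1 or 3, and that of GmaAffx.42487.1.S1_at without HiPro replicate 1 or 2 or LoPro replicate 2. GmaAffx.69807.1.A1_at and Gma.10034.1.A1_at, from the same list, were not called, at 0.75 ± 0.22 and 0.75 ± 0.34 (adjusted p of 0.64 and 1).

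A probeset with the symbol H4, a core histone (GmaAffx.89772.14.A1_s_at), gave 225, 289 and 200 in HiPro, against 552, 553 and 431 in LoPro, a difference of -1.11 ± 0.18 (adjusted p = 0.012). The suffix of its identifier marks probes shared between transcripts. Identifiers that begin alike belong to several genes, among them VSPA, PR-10 and H4 itself, so its gene is uncertain. The other H4 probeset, GmaAffx.89772.1.A1_s_at, was not called (-1.66 ± 0.76). It gave 16, 3.2 and 37.6 in HiPro, against 65.4, 19.3 and 48.1 in LoPro, with overlap. Gma.6999.2.S1_s_at, without a name, gave 56.3, 103 and 39.9 in HiPro, against 790, 934 and 331 in LoPro, a difference of -3.35 ± 0.60 (adjusted p = 0.033). Its relatives on the array leaned the same way without passing. Gma.6999.1.S1_x_at (LOC100101844) gave 76.8, 109 and 90.5 in HiPro, against 435, 599 and 175 in LoPro, a difference of -1.97 ± 0.48 (adjusted p = 0.32). The calls of the H4 probeset and of Gma.6999.2.S1_s_at were both lost without HiPro replicate 1 or 3 or LoPro replicate 1 or 2. That of Gma.6999.2.S1_s_at was also lost with the plant pool as a random block, which allows for the plants that the stages share, and without the trend of the spread with signal.

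The other called probesets were dim. GmaAffx.73402.1.S1_at gave 4.6, 7.6 and 4.7 in HiPro, against 61.4, 40.1 and 61.1 in LoPro, and GmaAffx.63553.1.S1_at, GmaAffx.160.2.A1_at (LOC778099) and GmaAffx.41486.1.A1_at were at most 11.6 in any HiPro array. With dim signals raised to 14.5, none of these 4 was called, with adjusted p of 0.16, 0.15, 1 and 0.98. GmaAffx.73402.1.S1_at was called without any single array of stage 4, and the other 3 all lost their call without LoPro replicate 1. GmaAffx.63553.1.S1_at and GmaAffx.160.2.A1_at also lost it without HiPro replicate 2 or LoPro replicate 2 or 3, GmaAffx.63553.1.S1_at without HiPro replicate 1, and GmaAffx.41486.1.A1_at without HiPro replicate 1 or 3 or LoPro replicate 3. The only probeset called as higher in HiPro, Gma.11808.1.A1_at, gave 19.5, 19.4 and 28.4 in HiPro, against 1.6, 5.5 and 3.6 in LoPro, a difference of 2.79 ± 0.52 (adjusted p = 0.047). Raised to 14.5 it differed by 0.60 (adjusted p = 1), and the call was lost in the fit without HiPro replicate 1, 2 or 3 or LoPro replicate 1 or 3, and with the plant pool as a random block.

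No probeset with a mean signal of at least 100 in HiPro was called as higher in HiPro, so the 10 such probesets with the lowest p are given as not passing. Gma.924.1.S1_at (Glyma02g45170) had the largest difference of them, with 815, 286 and 367 in HiPro, against 164, 103 and 178 in LoPro, or 1.61 ± 0.39 (adjusted p = 0.31). Gma.9710.1.A1_at, a membrane protein-like protein, gave 318, 284 and 372 in HiPro, against 170, 176 and 229 in LoPro, or 0.76 ± 0.20 (adjusted p = 0.4). Gma.5672.1.A1_at, the chlI subunit of magnesium chelatase, which inserts magnesium in chlorophyll synthesis, gave 1427, 1376 and 1452 in HiPro, against 1004, 1086 and 1222 in LoPro, or 0.37 ± 0.09 (adjusted p = 0.4). None of these 3 overlapped between the lines. The others were Gma.3013.1.S1_s_at, GmaAffx.81502.1.S1_at, Gma.13881.1.S1_at, GmaAffx.65939.1.A1_at, Gma.1355.2.S1_s_at, a plastocyanin probeset and Gma.734.1.A1_at, with differences between 0.39 and 1.24.

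The line differences of the called probesets were then followed over the earlier stages, with the question whether they were already present in younger seed. Comparing HiPro with LoPro, 6 probesets were called at stage 1 (0.0159%), 5 at stage 2 (0.0133%) and 13 at stage 3 (0.0345%). Of the 23 called at stage 4, 5 were also called in the same direction at stage 1, 5 at stage 2 and 8 at stage 3. The same direction, called or not, was seen for 18, 17 and 21 of the 23. The stages of a line share their plants, so these are not independent repeats.

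The pqi1 probesets were lower in HiPro by nearly the same amount throughout. Gma.1680.1.S1_at differed by -2.62 at stage 1, -2.58 at stage 2, -2.44 at stage 3 and -2.59 at stage 4. The difference at stage 4 minus the mean of the 3 earlier ones was -0.04 ± 0.28 (adjusted p = 1). Gma.7719.1.A1_at, the Mov34 gene, differed by -5.97, -6.69, -9.49 and -8.84 over the 4 stages, and the contrast of stage 4 against the earlier stages was -1.46 ± 1.06 (adjusted p = 1). Its LoPro signal had geometric means of 134, 163, 299 and 373 over the stages, while no HiPro array exceeded 5.46 at any stage. GmaAffx.55722.1.S1_at differed by -1.13, -1.19, -2.13 and -1.58.

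The 3 unnamed probesets with strong signals had another course. Gma.10771.1.A1_at differed by -0.27 at stage 1, -0.10 at stage 2, -0.73 at stage 3 and -1.88 at stage 4. Its geometric mean signals in HiPro were 8810, 7970, 5350 and 1840 over stages 1 to 4, against 10600, 8550, 8870 and 6800 in LoPro. GmaAffx.64205.1.S1_at had 10300, 8990, 6490 and 2430 in HiPro, against 13100, 10200, 12000 and 7520 in LoPro. GmaAffx.80346.1.S1_at had 5710, 4050, 2790 and 922 in HiPro, against 6820, 4790, 5710 and 3070 in LoPro. At stage 3 none of the 3 was called, with adjusted p of 0.56, 0.46 and 0.43, and in each the highest HiPro array was above the lowest LoPro array. At stage 4 the arrays of the lines did not overlap. The contrast of stage 4 against earlier stages did not pass for any of them, at -1.52 ± 0.30, -1.16 ± 0.30 and -1.22 ± 0.33, with adjusted p of 0.25, 0.95 and 1.

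The lipolytic enzyme GmaAffx.31065.1.S1_at differed by -0.07, -0.79, -0.98 and -1.13 over the stages, and the H4 probeset by 0.11, -0.09, -0.01 and -1.11. Gma.6999.2.S1_s_at reached geometric means of 96.2 and 61.3 in HiPro at stages 3 and 4, against 460 and 625 in LoPro, and no array of either line exceeded 74.5 at stages 1 and 2. The aldehyde dehydrogenase Gma.1031.1.S1_at had 184, 102, 68 and 29.4 in HiPro, against 223, 170, 181 and 142 in LoPro. The phosphatase GmaAffx.47978.1.S1_at had 54.8, 35.9, 15.7 and 5.32 in HiPro, against 92, 106, 78.1 and 92.2 in LoPro. The LoPro signal of the phosphatase was about level over the stages while that of HiPro became dimmer at each step.

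**Figure D3:**
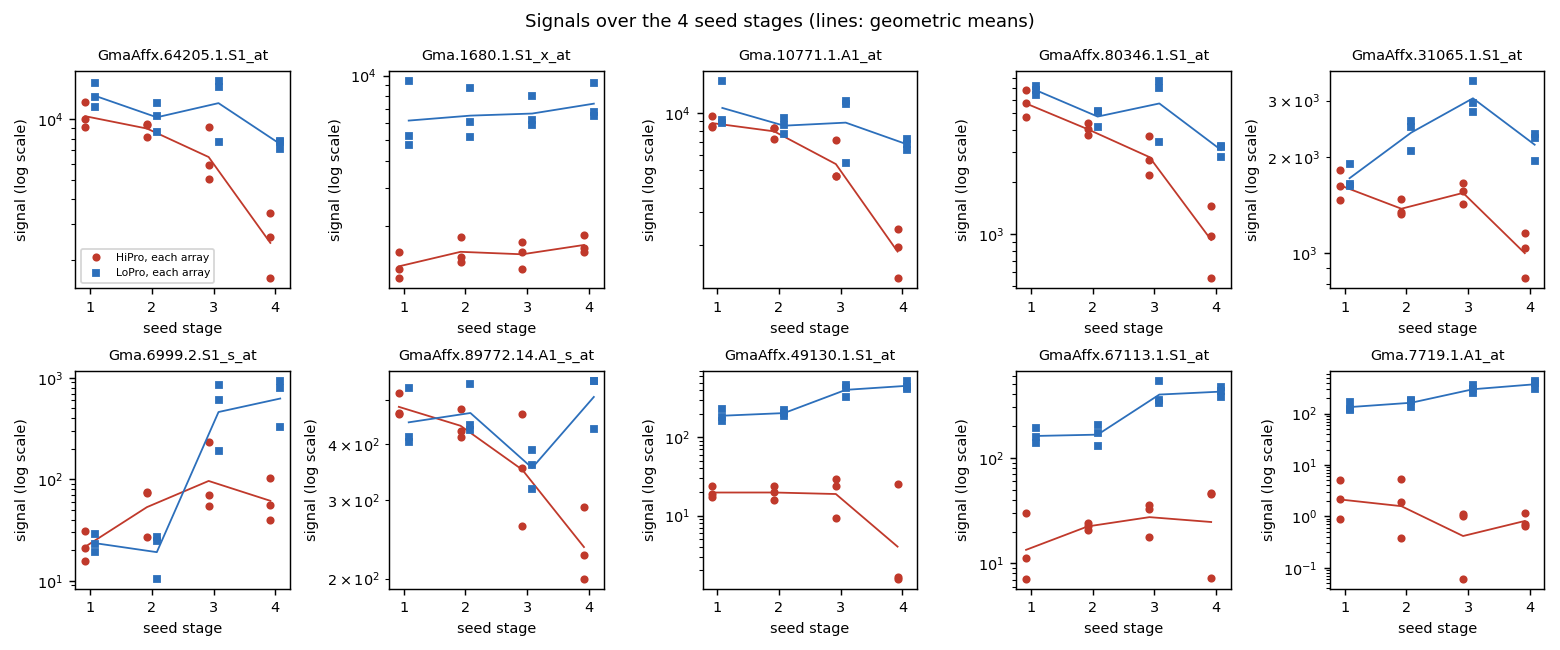
Signals over the 4 seed stages of the 10 probesets called at stage 4 with the highest LoPro signal, 1 for each identifier family, on log axes, with each array shown as a point (HiPro circles, LoPro squares) and lines through the geometric means of each line. The pqi1 and Mov34 panels are apart at all stages, and the Gma.10771.1.A1_at and GmaAffx.64205.1.S1_at panels part toward stage 4, where HiPro averaged 1840 and 2430 and LoPro 6800 and 7520.

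Over all probesets, the line difference of stage 4 was not called as different from the mean of stages 1 to 3 in any probeset (limma, 0 of 37694, 0%), while 1232 had an unadjusted p under 0.05 (3.27%). The count is at its threshold. The lowest p belonged to GmaAffx.73402.1.S1_at, GmaAffx.12292.1.S1_at and GmaAffx.160.2.A1_at, all lower in HiPro at stage 4, with contrasts of -3.42 ± 0.52, -3.45 ± 0.54 and -4.80 ± 0.77 and an adjusted p of 0.0501 each, and 3 were called when 101 soybean control and rRNA probesets were left out. These 3 are dim at stage 4. The lowest p in the other direction had GmaAffx.52175.1.A1_at (LOC100790028), GmaAffx.56441.1.S1_at (LOC100500565), GmaAffx.91399.1.S1_at, Gma.11808.1.A1_at and Gma.13881.1.S1_at (LOC100305492), with adjusted p between 0.261 and 0.678. GmaAffx.56441.1.S1_at differed by -3.01, -2.99 and 0.92 at stages 1 to 3 and by 4.06 at stage 4, where it gave 20.3, 30 and 16.4 in HiPro, against 2.8, 0.9 and 0.9 in LoPro. GmaAffx.91399.1.S1_at differed by -0.74, -0.18, -0.08 and 0.50 over the stages.

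The storage program of the seed was examined next, with lists formed by keyword from gene symbols and gene descriptions. Descriptions were at hand for 1672 of the tested probesets. They belong mostly to genes picked because they changed on these same arrays, so the lists are partial and no independent sample. No member of any list other than those of the QTL region was called.

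No seed storage protein passed the test. In the fit over all stages, 0 of 14 probesets were called and 0 had an unadjusted p under 0.05. The median difference was 0.12, with 11 positive and 3 negative. Gma.1017.2.S1_a_at, a beta-conglycinin beta chain (CG-BETA-1), gave 21831, 26256 and 19699 in HiPro, against 20922, 18323 and 20427 in LoPro, a difference of 0.18 ± 0.81 (adjusted p = 1). Glycinin GY2 (Gma.1857.1.S1_at) gave 23078, 28389 and 22249 in HiPro, against 22693, 20854 and 22460 in LoPro, a difference of 0.15 ± 0.20 (adjusted p = 1). The arrays of the lines overlapped in both. Glycinin GY3 (Gma.10058.1.S1_at) gave 15191, 16035 and 17702 in HiPro, against 11066, 13560 and 9482 in LoPro. The lines did not overlap for GY3, but the difference of 0.53 ± 0.60 did not pass (adjusted p = 1). The SE of each probeset draws on the spread within groups at all stages, and not only on the arrays compared here. For CG-BETA-1 and GY3 the log2 signals given here spanned less within each line than that SE. Failing this test therefore does not show that the lines had equal levels. Glycinin GY7 (Gma.8442.1.S1_at) gave 377, 285 and 327 in HiPro, against 481, 555 and 386 in LoPro, a difference of -0.52 ± 0.29 (adjusted p = 1).

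No oil gene passed either. The 6 oil body protein probesets had differences from 0.01 to 0.13 and a median of 0.09. Oleosin 2 (Gma.1880.1.A1_at) gave 13218, 16955 and 12894 in HiPro, against 13663, 12127 and 13276 in LoPro, with overlap (0.13 ± 0.18, adjusted p = 1). Of 9 fatty acid and oil synthesis probesets, with a median of 0.05, the oleate desaturase FAD2-1A (Gma.1839.1.S1_at) gave 20060, 22533 and 19403 in HiPro, against 20634, 18604 and 18237 in LoPro. A diacylglycerol kinase (DGK12, GmaAffx.35669.1.A1_at), which converts diacylglycerol to phosphatidic acid, gave 520, 484 and 420 in HiPro, against 683, 538 and 600 in LoPro, without overlap and without passing (-0.35 ± 0.12, adjusted p = 0.83). The 38 late embryogenesis and seed maturation probesets had a median of 0.00, and none had an unadjusted p under 0.05 in the fit over all stages.

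Of 26 photosynthesis probesets 23 had a positive difference. The median difference was 0.22 beside -0.03 over all probesets, and its quartiles were 0.15 and 0.33. None was called. An unadjusted p under 0.05 was reached by 8 higher (30.8%, beside 1.55% of all probesets) and 1 lower (3.85%, beside 2.93%). Several probesets read the same gene, so these are fewer than 26 genes. Plastocyanin, which passes electrons to photosystem I, gave 2800, 2493 and 2776 in HiPro, against 1922, 1942 and 2319 in LoPro, on Gma.2731.2.A1_x_at (0.39 ± 0.10, adjusted p = 0.4). An oxygen-evolving enhancer protein (Gma.1955.4.S1_a_at, Glyma03g26740) gave 3873, 3601 and 3725 in HiPro, against 2721, 3136 and 3140 in LoPro (0.32 ± 0.13, adjusted p = 1). The arrays did not overlap in either, and the differences of the 26 lay between -0.25 and 0.42. The 1 on the lower side was a ferredoxin homolog (Gma.10749.1.S1_at), at -0.22.

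Chloroplast ribosomal proteins made up most of the 25 ribosomal probesets, of which 21 had a positive difference, with a median of 0.11 and 0 called. The chloroplast protein S10 (GmaAffx.92825.1.S1_s_at) gave 983, 802 and 957 in HiPro, against 754, 737 and 654 in LoPro (0.35 ± 0.10, adjusted p = 0.64). L15 (Gma.3419.1.S1_at) gave 631, 477 and 555 in HiPro, against 422, 457 and 404 in LoPro (0.36 ± 0.12, adjusted p = 0.78). Each had its lowest HiPro array above its highest LoPro array.

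**Figure D4:**
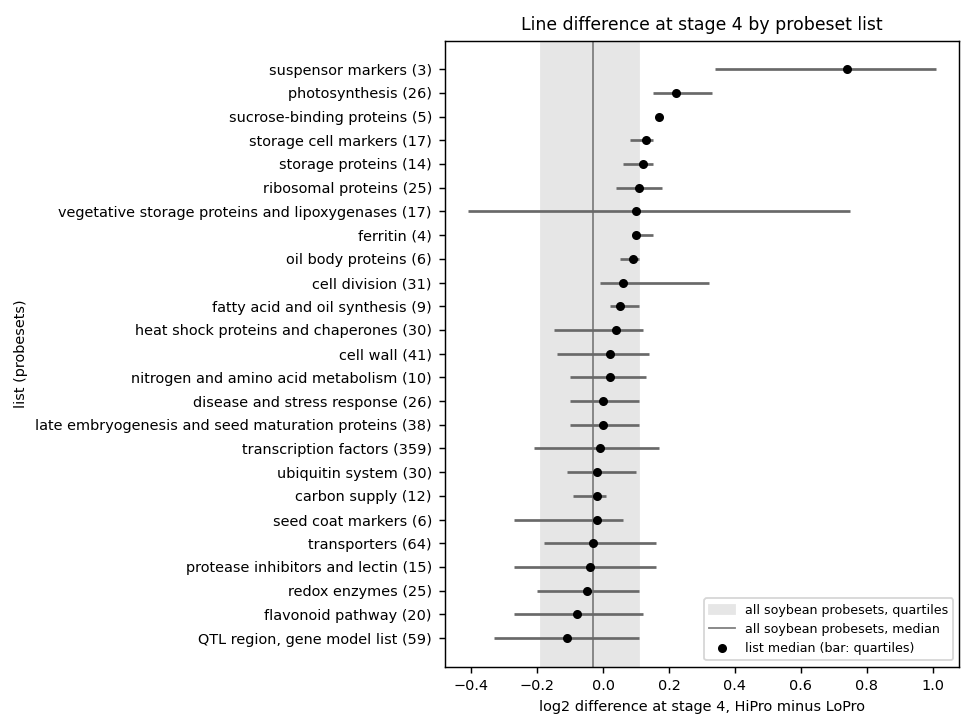
Median (point) and quartiles (bar) of the log2 difference between HiPro and LoPro at stage 4 for the keyword and marker lists and the gene model list of the QTL region, with the number of probesets in brackets and the quartiles and median of all soybean probesets as the grey band and line. The photosynthesis list has its median at 0.22 and its bar above the grey band, the 3 probesets described as suspensor-specific have the highest median at 0.74, and the gene model list of the QTL region has the lowest of those drawn at -0.11.

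Among genes of nitrogen supply, 10 probesets had a median of 0.02 and 0 were called. The cytosolic glutamine synthetase GS1GAMMA2 (Gma.1104.1.S1_at), which fixes ammonium into glutamine, gave 2090, 1469 and 1988 in HiPro, against 1284, 1264 and 987 in LoPro. The lines did not overlap, but the difference of 0.64 ± 0.22 did not pass (adjusted p = 0.81). A glutamine synthetase described as root isozyme A (Gma.2105.1.S1_at) gave 119, 163 and 206 in HiPro, against 182, 274 and 187 in LoPro, with overlap and a difference in the other direction (-0.41 ± 0.20, adjusted p = 1). The 12 carbon supply probesets had a median of -0.02 and the 5 sucrose-binding probesets one of 0.17, with 0 called in each.

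Vegetative storage proteins and lipoxygenases, 17 probesets with a median of 0.10 and 0 called, held members on both sides. The vegetative storage protein VSPA, an acid phosphatase-like protein stored in leaves and pods, gave 523, 408 and 648 in HiPro, against 279, 220 and 219 in LoPro, on GmaAffx.89772.6.A1_s_at (1.12 ± 0.31, adjusted p = 0.57). This VSPA probeset was called at stage 3 (limma, 1.76, adjusted p = 0.045). It has the shared-probe suffix and the identifier stem of the called H4 probeset, so its gene is uncertain too. The lipoxygenase LOX7 (Gma.10969.1.S1_x_at), of the enzymes that oxidise unsaturated fatty acids, gave 24.6, 44.9 and 32.4 in HiPro, against 69, 81.4 and 71.2 in LoPro (-1.16 ± 0.27, adjusted p = 0.27). The lines did not overlap in either probeset, and this VSPA probeset stands on the study's list of line differences. The seed lipoxygenase LOX3 (Gma.15534.1.S1_at) gave 24028, 25481 and 21496 in HiPro, against 23519, 20157 and 22714 in LoPro, with overlap.

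**Figure D5:**
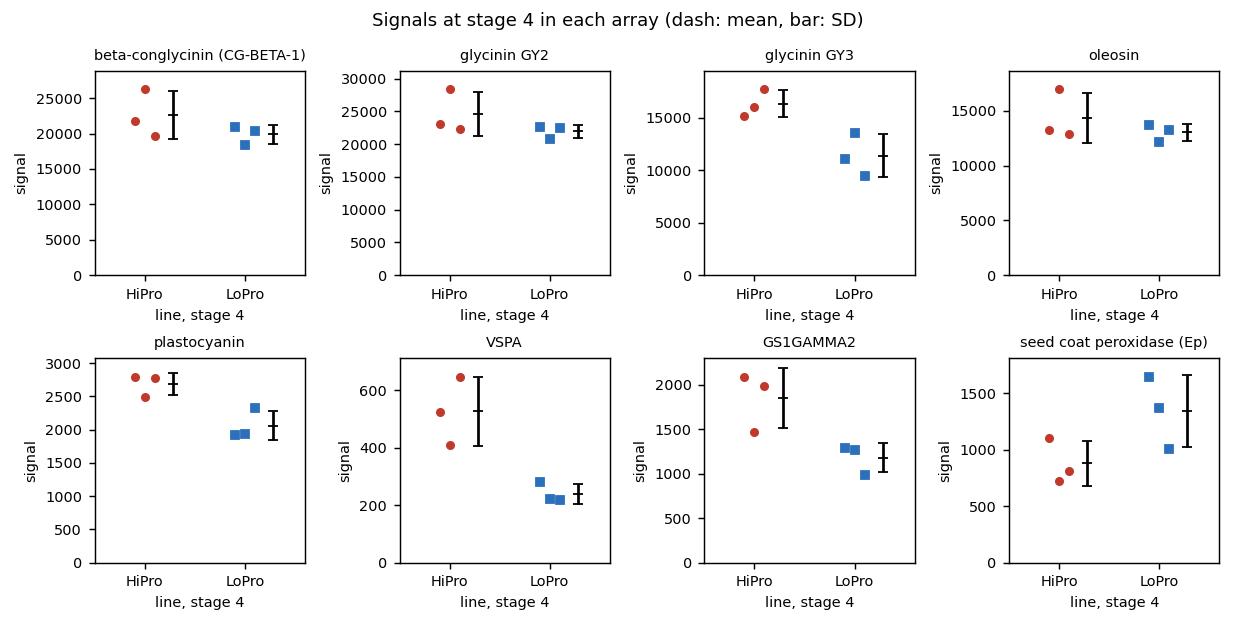
Signals at stage 4 in each array for 8 genes of storage, photosynthesis, nitrogen supply and the seed coat, on linear axes that start at 0, with HiPro left and LoPro right, the mean as a dash and the SD as a bar (n = 3 arrays each). The lines overlap for CG-BETA-1, GY2, oleosin and Ep, HiPro lies above LoPro in the other 4 panels, and none of the 8 was called.

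The other lists gave 0 called members each. Of 31 cell division probesets 22 had a positive difference, with a median of 0.06, and the mitotic kinase CDKB (Gma.2284.2.A1_at) gave 104, 90.7 and 117 in HiPro, against 68.4, 55.6 and 62.6 in LoPro (0.74 ± 0.31, adjusted p = 1). The called H4 probeset, lower in HiPro, is not counted in this list. Of 359 transcription factor probesets the median was -0.01, and the lowest p belonged to a heat shock transcription factor (Gma.3975.1.S1_s_at) at 0.41 ± 0.12 and WRKY22 (GmaAffx.77950.1.S1_at) at -0.42 ± 0.13, with adjusted p of 0.65 and 0.75. Of 64 transporter probesets the nearest to passing was the vacuolar cation/proton exchanger GmaAffx.83908.1.S1_at, with 235, 159 and 176 in HiPro, against 394, 394 and 379 in LoPro (-1.06 ± 0.21, adjusted p = 0.1). The exchanger stands on the study's list of line differences too, and was called at stage 3 (limma, -1.23, adjusted p = 0.042). Medians of the protease inhibitor, ferritin, heat shock, flavonoid, cell wall, ubiquitin, redox and stress lists lay between -0.08 and 0.10.

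Whole seed holds several tissues, among them seed coat and cotyledon, and in such bulk samples fewer cells of a type and less RNA per cell cannot be told apart. The summed signal of 6 seed coat marker probesets was 11611 to 17422 in HiPro, against 12115 to 15930 in LoPro. That of 17 storage cell markers was 248572 to 313599 in HiPro, against 236269 to 262182 in LoPro. That of 3 probesets described as suspensor-specific was 1945 to 2070 in HiPro, against 1445 to 2242 in LoPro. Each sum overlapped between the lines (exact permutation test, two-sided, p = 1, 0.2 and 0.4, n = 3 arrays each, where 0.1 is the smallest p possible). All marker lists had 0 called members. All 17 storage cell markers had a positive difference, with a median of 0.13 beside -0.03 over all probesets, and some read the same gene. Of all 37694 probesets, 16907 had a positive difference. The seed coat peroxidase Ep (Gma.876.1.S1_at) gave 1108, 723 and 812 in HiPro, against 1650, 1370 and 1011 in LoPro (-0.60 ± 0.19, adjusted p = 0.72). The suspensor-specific protein probeset Gma.9781.1.S1_at (LOC100306585) gave 272, 299 and 272 in HiPro, against 143, 86.5 and 127 in LoPro (1.27 ± 0.52, adjusted p = 1), and it stands on the study's list of line differences. At stage 1 this probeset was called as higher in HiPro (limma, 3.20, adjusted p = 0.026). Its geometric means rose from 47.4 at stage 1 to 281 at stage 4 in HiPro, and from 5.16 to 116 in LoPro. Those of Gma.17917.1.S1_at, of the same description, rose from 52.8 to 344 and from 20.7 to 206. With signals that rise over seed fill, these probesets are not taken as a measure of suspensor cells. The part of the marker lists in the differences above was not tested.

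The stage of the seed could also differ between pools of the same weight class. The study states that HiPro matures slightly earlier than LoPro. Of the 24909 probesets with a mean signal over 100, 793 had a mean over both lines at least 2-fold higher at stage 3 than at stage 1, and their median difference between HiPro and LoPro at stage 4 was -0.02. That of the 1127 at least 2-fold lower at stage 3 was 0.03, beside -0.02 for all of them. These sets do not cover changes that begin after stage 3, and the part of seed stage in the differences was not tested. For the actin control, the log2 signal of the 3′ end exceeded that of the 5′ end, a measure of RNA integrity, by a mean of 4.91 in HiPro and 4.95 in LoPro (exact permutation test, two-sided, p = 0.8, n = 3 arrays each). For the ubiquitin control the means were 2.59 in HiPro and 3.58 in LoPro, with an overlap of the arrays (exact p = 0.7). For the P450 control they were 1.8 in HiPro and 1.54 in LoPro (exact p = 0.3), and the other two controls differed by -0.09 and 0.12 (exact p = 0.4 and 0.5).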

How the data were processed

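Total RNA of developing seed was hybridised to the Affymetrix Soy GeneChip, 1 array for each sample. The authors deposited linear intensity values, namely MAS5 signals (version not given in the sources used here), with each array scaled by 1 factor. The study's methods name RMA as its main condensation, so these values come from another processing. Of 37763 probesets, 69 controls were left out. No floor was set (lowest signal 5.2e-04). In R 4.3.3, limma 3.58.1 estimated 8 group means, 1 per line and stage, from the log2 signals of 24 arrays (16 residual degrees of freedom), and eBayes let the prior spread vary with signal. The table gives no detection calls and no depth, and 3 arrays for each group limit the precision. Probesets were named from the platform annotation and the study's additional files, and 8677 have 1 gene symbol, 370 several. Members, lists and tests were chosen with earlier results of these data known.

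Named probesets are up to 15 called in each direction without overlap and with a mean signal of at least 100, filled up to 10 by p where fewer were called, the probesets of the study's line comparison, the called ones of the QTL list, up to 4 called or the 2 with the lowest p of each list, and the 5 with the lowest p in each direction of the contrast of stage 4 against earlier stages. Any others were picked with their values in view. The test was checked on simulated data. The stages of a replicate share plants, so the plant pool was tried as a random block (20 of the 23 calls at stage 4 were kept). Alternatives changed the normalization, the floor, the filter, the arrays in the fit, the blocks and the test.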

Additional observations from a re-analysis of the deposited data

How the results depend on the processing

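Of the 23 calls at stage 4, all kept their direction in each alternative in which they were tested. Leaving out the dimmest 30% of probesets gave 11 calls, which are the 11 tested there. Only the 6 arrays of stage 4 gave 4, of which 3 were among the 23. The methods' t-test gave 0 after Benjamini-Hochberg adjustment, and 606 probesets at an unadjusted p under 0.05 and at least 1.5-fold (1470 without the fold threshold). It was run here on the deposited signals of the 6 arrays of stage 4. The study's own line comparison by this test combined the stages, with RMA as the main condensation. The count was 16 to 23 without 1 array of stage 4, lowest without LoPro replicate 2, and of the 23 between 13 and 18 were kept. Without LoPro replicate 3, 6 of the calls were higher in HiPro, against 1 with all arrays. The floor at the 10th percentile gave 27 calls, 17 of them among the 23. Quantile normalization moved the median difference to 0.001 and gave 22 calls. The plant pool as a random block gave 20 calls, all among the 23. The methods describe paired planting of the lines, but no source used here ties the replicate numbers to it. Same-numbered HiPro and LoPro replicates deviated from their group means with correlations of 0.20, -0.01 and 0.07, beside -0.15 to 0.09 for differing numbers, so a pairing by number was not established, and with the replicate block there were 24 calls, 21 of them among the 23.

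For the contrast of stage 4 against stages 1 to 3, which had 0 calls, quantile normalization and the replicate block gave 1 each, the floor at the 10th percentile and the plant pool as a random block gave 3 each, and 3 were called without the soybean control and rRNA probesets, an alternative chosen after seeing the data. Without 1 array of stage 4 the count was 0 to 6, highest without HiPro replicate 3. The QTL list had 7 or 8 calls, and its gene model part 1 or 2, in fits without 1 array. The QTL list had 3 without the dimmest probesets (0 from the gene models), 3 with only the arrays of stage 4 and 0 in the methods' t-test. Among named probesets that were not called, the sign turned for FAD2-1A and an oleosin 2 probeset under quantile normalization (-0.01 each), and in fits without 1 array for that oleosin (0 to 0.17) and for the SFERH-2 ferritin probesets Gma.2505.2.S1_at (-0.39 to 0.7, also -0.16 without HiPro replicate 1) and Gma.2505.2.S1_x_at (-0.29 to 0.81). The difference of GmaAffx.52175.1.A1_at was 0 with the floor, since all 6 of its signals lie under it. The causes of the others were not tested.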
